A study of Mus musculus with 12 samples.

Results

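The 9 genes described here belong to the insulin-like growth factor (IGF) system and were followed through the conversion of mouse astrocytes into induced pluripotent stem cells (iPSCs). They were the binding protein genes Igfbp2, Igfbp3, Igfbp4, Igfbp5, Igfbp6 and Igfbp7, the ligand gene Igf1, and the receptor genes Igf1r and Igf2r, 9 of the 19938 genes with a probe set of their own on the arrays. Each gene was read from its brightest single-gene probe set, and each of the 9 had exactly 1 such probe set. The genes were not chosen blind to these data. Igfbp2 was chosen by its measured log2 intensity, which was low in the cells collected at day 6, so its values in comparisons with those cells are given as a description and were not tested, and members were counted there over the other 8.

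Total RNA was hybridized to 12 Affymetrix Mouse Gene 1.0 ST arrays, and the values are probe set intensities on a log2 scale, where a difference of 1 is a factor of 2. Astrocytes (3 arrays) were cultured from the cortex of Sox1-GFP reporter mice (Sox1+/-) at postnatal day 3, grown in DMEM/F12 that held 10% fetal bovine serum, and the GFP-negative cells were sorted before any factor was added. Day 6 cells (3 arrays) were those astrocytes, Sox1+/-, infected with retroviruses for Oct4, Klf4, Sox2 and c-Myc, kept in embryonic stem cell medium with 15% serum and leukaemia inhibitory factor (LIF) at 1000 U/ml, and sorted as GFP-positive at day 6. Neural stem cells (2 arrays) came from the telencephalon of Sox1-GFP embryos (Sox1+/-) of embryonic day 12.5 to 14.5 and grew with N2 supplement, which contains insulin, and with bFGF and EGF. Astrocyte iPSCs (2 arrays) were mature Sox1+/- cells established from Sox1-GFP astrocytes. MEF iPSCs (2 arrays) came from mouse embryonic fibroblasts (MEFs), were the single line iPS-MEF-Ng-20D-17, and carried a Nanog-GFP-IRES-Puro reporter. Both kinds of iPSC grew on mitomycin C-treated MEF feeder layers with 15% serum or serum replacement and LIF at 1500 U/ml. The comparisons ask, as the study's title has it, whether cells on the way from astrocyte to iPSC resemble neural stem cells.

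IGF1 and IGF2 are secreted growth factors that act through the receptor tyrosine kinase IGF1R, while IGF2R carries no kinase and takes IGF2 into the cell for degradation. The IGFBPs are secreted proteins that hold the ligands outside the cell, prolong their life or keep them from the receptor, and release them when proteases cut them. In the brain, astrocytes are a known source of IGFBP2, and IGF signals support the growth of neural progenitors and of pluripotent cells.

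Array medians lay between 6.61 and 6.71 on the log2 scale, and arrays of the same group correlated across probe sets with Pearson's r of 0.992 to 0.996. The labels fitted their marker genes in most groups. In astrocytes 9 of 10 astrocyte markers lay above the array median on all arrays, and in each iPSC group 10 of 10 pluripotency markers did. All 9 measured neural stem cell markers did so in neural stem cells (summed intensity 26762 to 28447), but also in astrocytes (24144 to 26232), so they do not set those groups apart. Neural stem cells also had 7 of 10 astrocyte markers and 8 of 8 neuron markers above the median. Astrocytes had 2 of the 8 neuron markers there and day 6 cells 3. The mean log2 of the neuron markers was 8.83 and 9.42 in neural stem cells, against 7.69 to 7.79 in day 6 cells. Their summed intensity was 5944 to 8863 and 8556 to 8982. The part of neurons was not tested. Day 6 cells had 3 of 10 astrocyte markers, 6 of 9 neural stem cell markers and 4 of 10 pluripotency markers above the median. The 4 include Pou5f1, the gene of the delivered factor Oct4, and in astrocytes 1 of the 10 pluripotency markers lay above the median. Sox1, the gene of the reporter used for the sort, stood at 8.40 ± 0.13 (SD, n = 3) in day 6 cells and 8.13 ± 0.14 (SD, n = 3) in astrocytes. No GFP-negative or unsorted cells of day 6 were on the arrays, so a change of the infected cells cannot be told apart from the sorting of cells that differed already. Nor can fewer cells of a type and less RNA per cell be told apart in these bulk samples. Serum, insulin, LIF, feeder cells and age go with the groups, and their part in the differences below cannot be told apart from that of the cell type. The design text calls the replicates biological, but nothing in the labels ties each to separate animals or cultures. The spread behind the p-values may therefore be partly technical.

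The promoters of Igfbp2, Igfbp5 and Igfbp7 are shown because these 3 of the 9 genes had the largest drops from astrocytes to day 6 cells. Each run is the 250 bases before the gene's start in RefSeq, build GRCm38.p6, written 5′ to 3′ on the gene's own strand. Capitals mark GC boxes (GGGCGG on either strand). The Igfbp2 run is chr1:72824230-72824479 on the plus strand, the Igfbp5 run is chr1:72874866-72875115 on the minus strand, and the Igfbp7 run is chr5:77408046-77408295 on the minus strand.
Igfbp2: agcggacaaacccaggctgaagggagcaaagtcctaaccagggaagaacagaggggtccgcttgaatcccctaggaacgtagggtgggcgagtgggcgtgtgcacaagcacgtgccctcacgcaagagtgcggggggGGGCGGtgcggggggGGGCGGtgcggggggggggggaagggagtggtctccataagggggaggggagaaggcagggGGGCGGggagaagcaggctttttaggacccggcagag
Igfbp5: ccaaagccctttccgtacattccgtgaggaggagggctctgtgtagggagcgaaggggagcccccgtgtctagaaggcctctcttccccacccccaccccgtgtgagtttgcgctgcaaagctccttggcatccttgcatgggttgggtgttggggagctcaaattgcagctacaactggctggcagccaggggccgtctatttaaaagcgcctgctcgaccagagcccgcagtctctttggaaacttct
Igfbp7: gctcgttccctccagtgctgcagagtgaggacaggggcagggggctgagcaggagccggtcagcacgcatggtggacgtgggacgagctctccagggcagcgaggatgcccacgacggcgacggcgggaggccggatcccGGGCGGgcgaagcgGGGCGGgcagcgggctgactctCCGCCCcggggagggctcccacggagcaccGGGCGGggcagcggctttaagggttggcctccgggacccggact

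Over the full RefSeq windows of 300 bases, which add 50 bases after the start, the 3 promoters had little in common. The Igfbp7 window held 4 GC boxes and 33 CpG sites, and the Igfbp2 window held 3 GC boxes and 18 CpG sites. The Igfbp5 window held 10 CpG sites and none of the 6 motifs searched on both strands. Those motifs were the TATA box (TATAAA), the GC box, the CCAAT box (CCAAT), the AP-1 site (TGACTCA), a Sox motif (AACAAT) and the octamer (ATGCAAAT). Among all 32851 windows, 13.6%, 35.7%, 37.4%, 5.2%, 10.7% and 1.74% held them, in that order. RefSeq gave Igfbp2 a second start with an AP-1 match on the antisense strand at position -39 from that start. Of the other members, Igfbp4 held a TATA box at position -28, Igfbp6 a TATA box on the antisense strand and 2 CCAAT boxes, Igf1 1 CCAAT box, Igf1r 2 GC boxes and Igf2r 3, and the Igfbp3 window held none of the 6 motifs. No window of the 9 genes held the Sox motif or the octamer, which says only that these letters are absent there.

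Igfbp2, whose product binds IGF2 with high affinity, was bright in astrocytes and lowest in day 6 cells. Its log2 intensity was 13.03, 13.10 and 12.93 in astrocytes, 7.90, 7.74 and 7.97 in day 6 cells, 11.07 and 10.80 in neural stem cells, 10.39 and 10.01 in astrocyte iPSCs, and 10.24 and 10.24 in MEF iPSCs. Every day 6 array lay below every array of the other groups, and the 2 iPSC groups overlapped. The day 6 mean lay 5.15 ± 0.11 (SE) below the astrocyte mean on the log2 scale, a factor of 35.5, a drop for which the gene was chosen. In linear units, the mean went from 8316 in astrocytes to 234 in day 6 cells. Astrocyte iPSCs stood 2.33 ± 0.12 above day 6 cells, so the level in the end product was between those of the start and of day 6. In comparisons without day 6 cells, Igfbp2 differed by -2.09 ± 0.12 between neural stem cells and astrocytes (limma adjusted p = 8e-08). It fell by 2.82 ± 0.12 from astrocytes to astrocyte iPSCs (adjusted p = 3.8e-09). Both use the astrocyte arrays that also gave the drop for which the gene was chosen, so these p-values are not independent of the choice. The iPSC groups differed by -0.04 ± 0.13 (adjusted p = 0.97).

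Igfbp5, whose product binds the extracellular matrix as well as the ligands, is the neighbour of Igfbp2 on chromosome 1, and the 2 genes read toward each other. Its log2 intensity was 12.82, 12.71 and 12.84 in astrocytes and 7.20, 7.23 and 7.22 in day 6 cells. It was 7.99 and 8.03 in neural stem cells, 7.24 and 7.64 in astrocyte iPSCs, and 7.10 and 6.93 in MEF iPSCs. Astrocytes alone were high, and every other array lay at 8.03 or below. Igfbp5 fell by 5.58 ± 0.09 (SE) from astrocytes to day 6 cells, a factor of 47.7 (limma adjusted p = 6.6e-12). Neural stem cells differed from astrocytes by -4.78 ± 0.10 (adjusted p = 9e-11), and the step to astrocyte iPSCs was -5.35 ± 0.10 (adjusted p = 2.2e-11). Day 6 cells lay 0.80 ± 0.10 below neural stem cells (adjusted p = 9.6e-05), short of the fold limit of 1 set for a call.

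Outside the astrocytes the neighbours thus took different courses, in part through the low day 6 value for which Igfbp2 was chosen. Igfbp2 was at 10.20 ± 0.27 (SD, n = 2) in astrocyte iPSCs against 7.87 ± 0.12 (n = 3) in day 6 cells, whereas Igfbp5 was at 7.44 ± 0.28 and 7.21 ± 0.01, a step smaller than the larger SD. Rpl37a, a ribosomal protein gene on the other side of Igfbp2, stood at 10.18 in astrocytes and 11.24 in day 6 cells and rose by 1.06. Tnp1, a sperm chromatin gene on the far side of Igfbp5, stayed between 5.61 and 5.93 in the 5 group means.

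**Figure D1:**
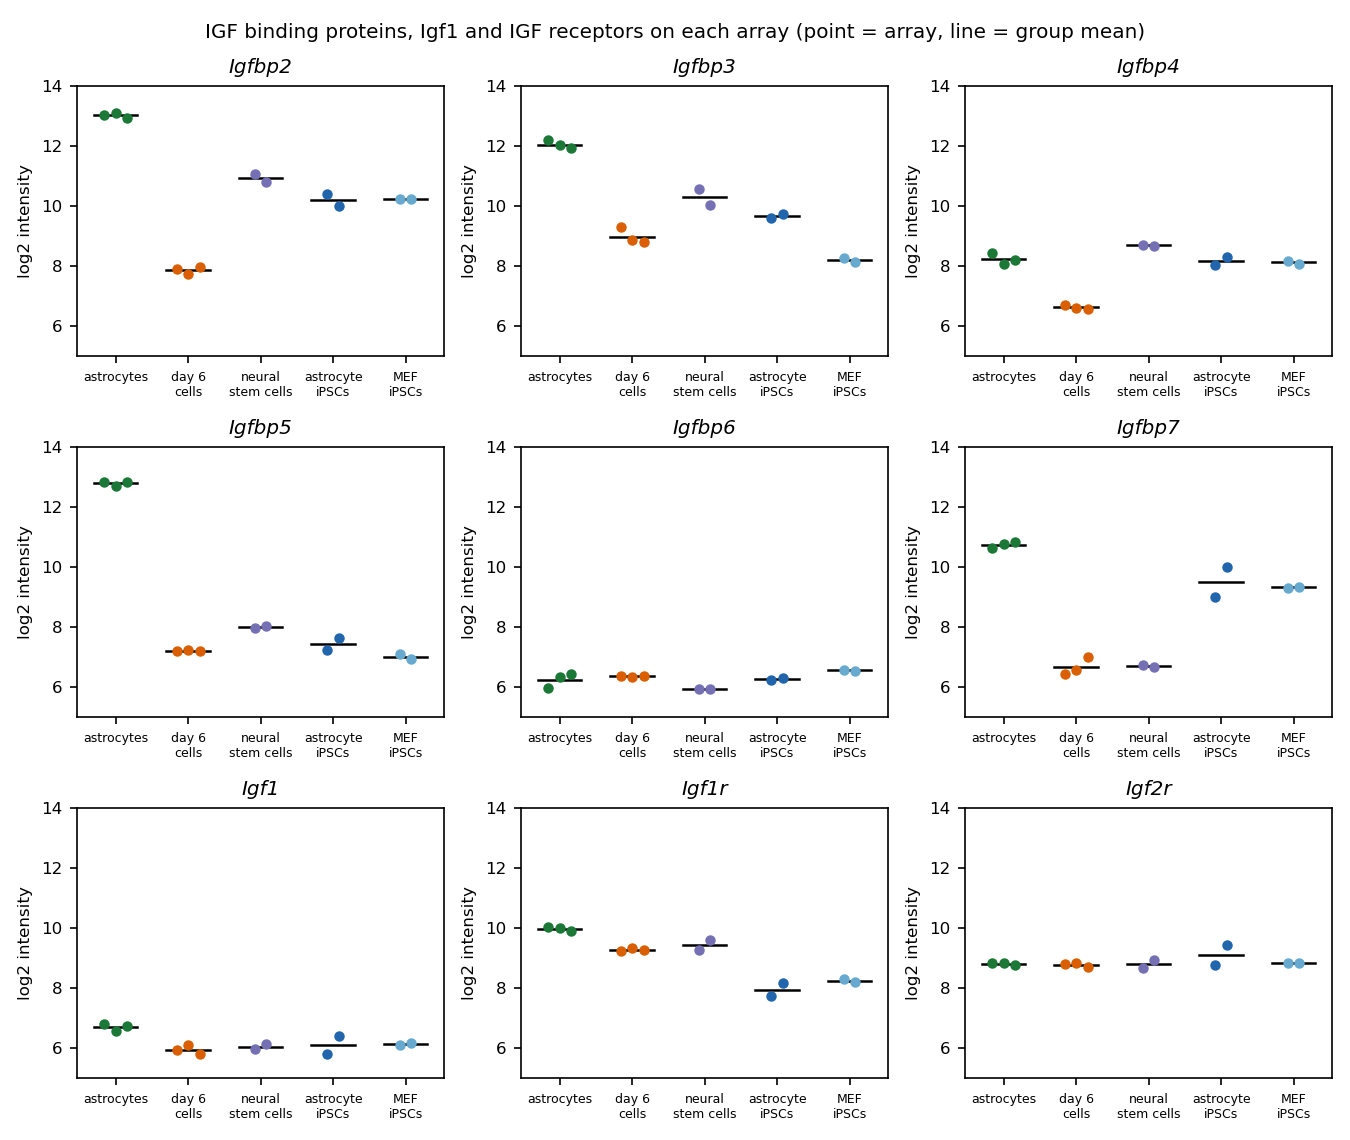
Log2 intensity (vertical axis) of the 9 IGF genes in the 5 groups (horizontal axis); each point is an array and each line a group mean. By group means, Igfbp2 is highest in astrocytes at 13.02 and lowest in day 6 cells at 7.87, and Igfbp5 is high in astrocytes alone. The group means of Igf2r lie between 8.78 and 9.10 and its arrays between 8.68 and 9.43.

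Igfbp3, the main IGF carrier of blood plasma, was read at 12.20, 12.02 and 11.92 in astrocytes and at 9.29, 8.87 and 8.79 in day 6 cells. Neural stem cells gave 10.57 and 10.03, astrocyte iPSCs 9.62 and 9.73, and MEF iPSCs 8.26 and 8.14. No 2 groups overlapped, and the order ran from astrocytes through neural stem cells, astrocyte iPSCs and day 6 cells to MEF iPSCs. Igfbp3 fell by 3.06 ± 0.15 (SE) from astrocytes to day 6 cells (limma adjusted p = 1.4e-08) and differed by -1.74 ± 0.17 between neural stem cells and astrocytes (adjusted p = 5.5e-06). It was also 1.32 ± 0.17 lower in day 6 cells than in neural stem cells (adjusted p = 8.5e-05). Among the 9 genes it was the only one called between the iPSC groups, higher by 1.47 ± 0.19 in astrocyte iPSCs than in MEF iPSCs (adjusted p = 0.000973). MEF iPSCs were a single line with another reporter, so the cell of origin and the line cannot be told apart there.

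Igfbp4, the binding protein cut by the protease pappalysin (Pappa), followed another course. Astrocytes gave 8.45, 8.06 and 8.20, day 6 cells 6.71, 6.61 and 6.57, neural stem cells 8.72 and 8.67, astrocyte iPSCs 8.04 and 8.31, and MEF iPSCs 8.18 and 8.09. Day 6 cells were low while the other 4 groups lay within 8.04 to 8.72, and astrocytes and both iPSC groups overlapped. It fell by 1.61 ± 0.10 (SE) from astrocytes to day 6 cells (limma adjusted p = 8.8e-08) and was 2.07 ± 0.11 lower in day 6 cells than in neural stem cells (adjusted p = 8.4e-08). It rose by 1.55 ± 0.11 from day 6 cells to astrocyte iPSCs (adjusted p = 1.4e-06), which differed from astrocytes by -0.06 ± 0.11 (adjusted p = 0.726). On 2 of the 3 day 6 arrays the signal was at or below the array median, so the size of the drop rests on a dim value.

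Igfbp7, a low-affinity member of the family that also binds insulin, was high in astrocytes and in iPSCs. Its log2 intensity was 10.65, 10.77 and 10.83 in astrocytes, 6.44, 6.56 and 7.02 in day 6 cells, 6.75 and 6.67 in neural stem cells, 9.02 and 10.01 in astrocyte iPSCs, and 9.31 and 9.35 in MEF iPSCs. Day 6 cells and neural stem cells overlapped near the array median. It fell by 4.07 ± 0.21 (SE) from astrocytes to day 6 cells (limma adjusted p = 2e-08) and differed by -4.04 ± 0.24 between neural stem cells and astrocytes (adjusted p = 9.7e-08). It rose by 2.84 ± 0.24 from day 6 cells to astrocyte iPSCs (adjusted p = 4e-06). The drop of 1.23 ± 0.24 from astrocytes to astrocyte iPSCs (adjusted p = 0.000856) came to -0.74 (adjusted p = 0.00663) without astrocyte iPSC replicate 1, which ends the call, and to -1.73 without replicate 2.

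Genes of fibroblasts, the cells that make up the feeder layer, were low in day 6 cells and neural stem cells. They were higher in astrocytes and iPSCs, as Igfbp7 was. By summed intensity the groups ran in the same order as the Igfbp7 means, whereas by mean log2 intensity they did not. The 10 genes were Col1a1, Col1a2, Col3a1, Thy1, Pdgfra, Lum, Dcn, Postn, Ogn and Fbln1. Of them, 7 lay above the array median on all astrocyte arrays, 5 in day 6 cells, 5 in neural stem cells, 9 in astrocyte iPSCs and 8 in MEF iPSCs. Their summed intensity ran from 9617 to 10367 in astrocytes, 1057 to 1145 in day 6 cells, 2031 to 2257 in neural stem cells, 4085 to 6953 in astrocyte iPSCs and 3365 to 3593 in MEF iPSCs. Their mean log2 intensity was as high in astrocyte iPSCs (8.16 to 8.92) as in astrocytes (7.99 to 8.42), where Igfbp7 was higher. Within astrocyte iPSCs, replicate 2 exceeded replicate 1 in the mean log2 of these genes (8.92 against 8.16), in Igfbp7 (10.01 against 9.02), in Igf1 (6.42 against 5.82) and in Igf2r (9.43 against 8.77). It also did so in Igf1r (8.16 against 7.75), Igfbp5 (7.64 against 7.24), Igfbp4 (8.31 against 8.04), Igfbp3 (9.73 against 9.62) and Igfbp6 (6.31 against 6.24), while Igfbp2 ran the other way (10.01 against 10.39). Single genes of the list differed in direction. Lum, a proteoglycan of fibroblasts, averaged 7.99 in astrocyte iPSCs, 6.00 in MEF iPSCs and 4.80 in astrocytes. Thy1 averaged 8.37, 8.07 and 11.79 in the same groups. The part of feeder RNA in the iPSC values of Igfbp7 and Igfbp4, and of fibroblasts in the astrocyte cultures, was not tested. Of 10 microglia markers, 2 lay above the median in astrocytes (summed intensity 804 to 1065) and 0 in day 6 cells (641 to 689). Of 10 meningeal markers, 4 did in astrocytes (1425 to 1440) and 3 in day 6 cells (980 to 1032), and of 10 endothelial and pericyte markers, 0 and 1 did. Their part in the binding protein values was not tested either.

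**Figure D2:**
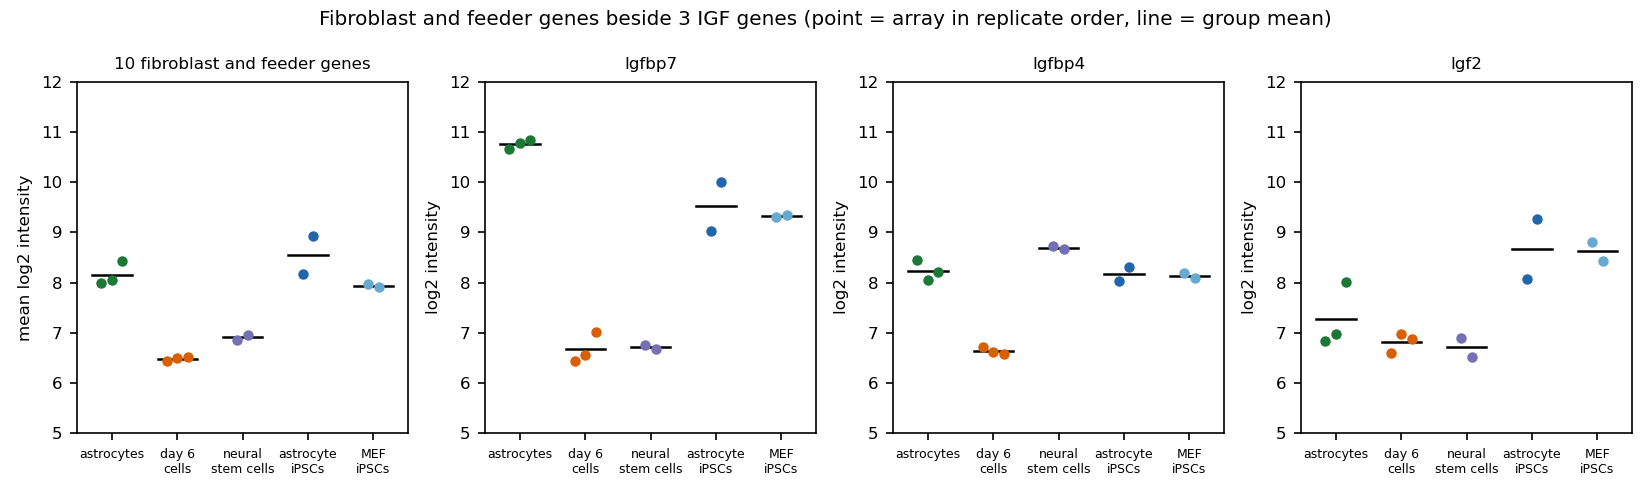
Mean log2 intensity of 10 fibroblast and feeder genes (left panel) beside the log2 intensity of Igfbp7, Igfbp4 and Igf2, by group; each point is an array in replicate order and each line a group mean. Day 6 cells are low for the fibroblast genes (6.43 to 6.52) and for Igfbp4 and Igfbp7, and astrocyte iPSC replicate 2 is above replicate 1 in all 4 panels.

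Igfbp6, whose product prefers IGF2, stayed dim. Its arrays ran from 5.98 to 6.44 in astrocytes, 6.33 to 6.38 in day 6 cells, 5.94 to 5.95 in neural stem cells, 6.24 to 6.31 in astrocyte iPSCs and 6.55 to 6.58 in MEF iPSCs. None of the 12 arrays put it above its median, and it was called in none of the 6 comparisons. The group means spanned 0.62 on the log2 scale, and differences of such a dim probe set can be compressed by background signal.

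Igf1, the ligand, was also dim, above the array median on 2 of 12 arrays. Astrocytes gave 6.82, 6.57 and 6.75, and day 6 cells 5.94, 6.11 and 5.81. The remaining 6 arrays lay between 5.82 and 6.42, so astrocytes stood above all others and the other 4 groups overlapped. Day 6 cells lay 0.76 ± 0.14 (SE) below astrocytes (limma adjusted p = 0.000556), under the fold limit, and Igf1 was called in no comparison.

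Igf1r, the signalling receptor, separated the iPSCs from the other groups. Its log2 intensity was 10.05, 10.00 and 9.90 in astrocytes, 9.24, 9.34 and 9.27 in day 6 cells, 9.28 and 9.62 in neural stem cells, 7.75 and 8.16 in astrocyte iPSCs, and 8.31 and 8.20 in MEF iPSCs. Day 6 cells and neural stem cells overlapped, and all 4 iPSC arrays were below all others. It fell by 1.33 ± 0.12 (SE) from day 6 cells to astrocyte iPSCs (limma adjusted p = 1e-05) and by 2.03 ± 0.12 from astrocytes to astrocyte iPSCs (adjusted p = 6.9e-08). The difference of -0.70 ± 0.11 between day 6 cells and astrocytes (adjusted p = 0.000216) was under the fold limit. At day 6, then, the binding proteins Igfbp3, Igfbp4, Igfbp5 and Igfbp7 were called lower than in astrocytes and the receptor was not.

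Igf2r, the clearance receptor, was the steadiest of the 9. Astrocytes ran from 8.77 to 8.85, day 6 cells from 8.72 to 8.84, neural stem cells from 8.68 to 8.93, astrocyte iPSCs from 8.77 to 9.43, and MEF iPSCs from 8.84 to 8.85. All neighbours in the order of group means overlapped, and their span was 0.32. No comparison called it, and its largest difference, 0.32 ± 0.15 (SE) between astrocyte iPSCs and day 6 cells, had a limma adjusted p of 0.146.

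Counted by comparison, with a call at a limma adjusted p under 0.05 and a log2 change of at least 1, most calls were lower levels than in astrocytes. In day 6 cells against astrocytes 4 of 8 members were lower and 0 higher, against 10.1% lower and 6.75% higher among all genes. Their median log2 fold change was -1.18, against 0.04 for all genes. In neural stem cells against astrocytes 4 of 9 were lower (8.1% of all genes) and 0 higher (6.49%), with a median of -0.66 against -0.03. In astrocyte iPSCs against astrocytes 5 of 9 were lower (11.4%) and 0 higher (9.44%), with a median of -1.23 against 0.01. These 3 comparisons share the astrocyte arrays and are not independent of each other. The counts and medians over 9 include Igfbp2, whose astrocyte values also entered the drop for which it was chosen.

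In the comparisons without the starting astrocytes fewer members were called. In day 6 cells against neural stem cells, 2 of 8 were lower (5.94% of all genes) and 0 higher (2.94%), with a median of -0.13 against 0.07. From day 6 cells to astrocyte iPSCs, 2 of 8 were higher (3.29%) and 1 lower (2.82%), with a median of 0.27 against -0.03. Between the iPSC groups, 1 of 9 was higher in astrocyte iPSCs (0.461%) and 0 lower (0.281%). The members were chosen with results of these data known, so the excess over all genes is a description.

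**Figure D3:**
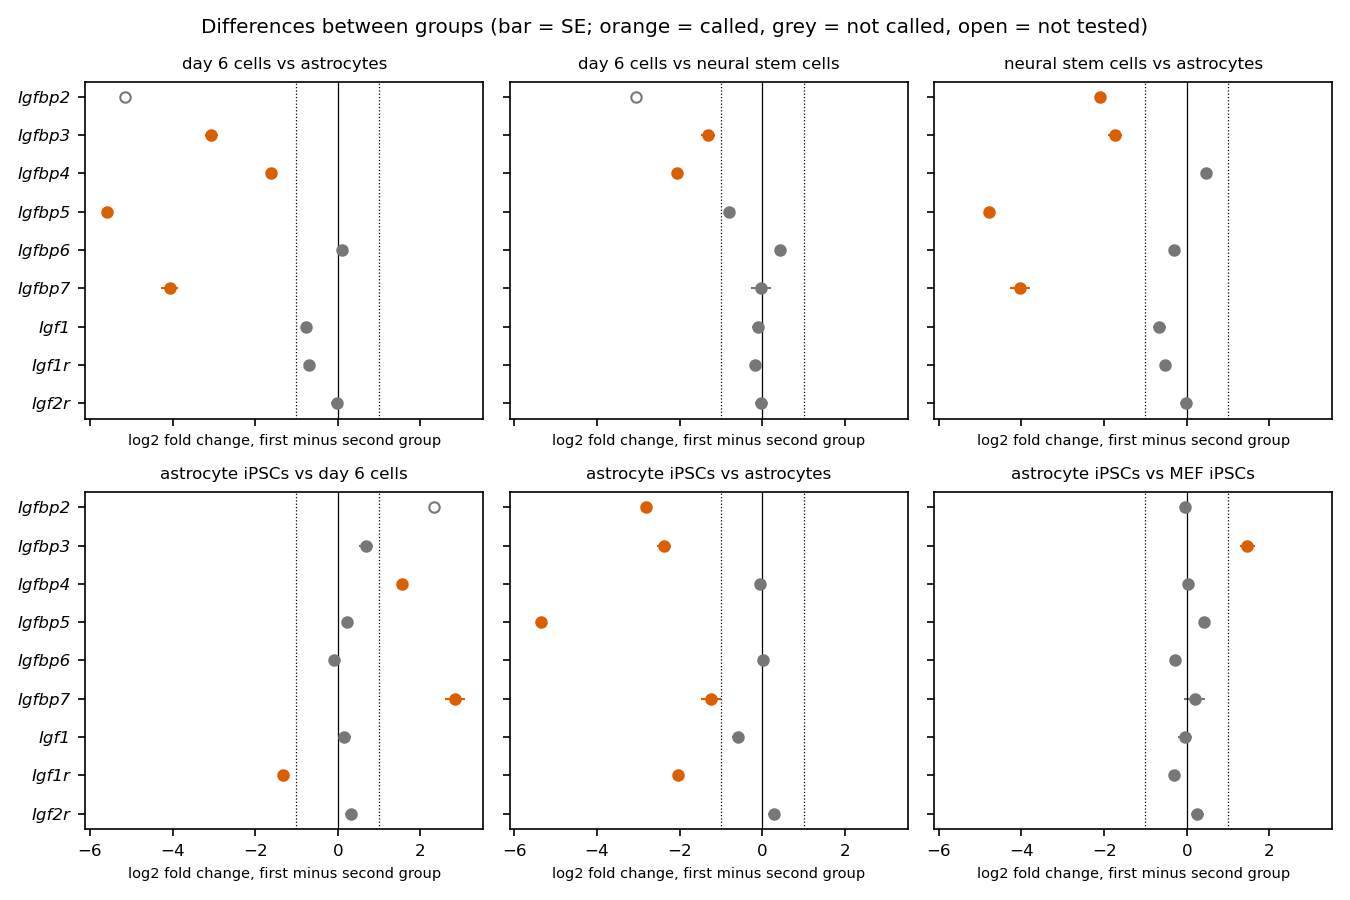
Log2 fold change, first group minus second (horizontal axis), of the 9 genes in the 6 comparisons; bars are limma standard errors, orange points are called, grey points are not called, open points were not tested, and dotted lines mark changes of 1. Igfbp5 lies at -5.58, -4.78 and -5.35 in the 3 comparisons with astrocytes, and Igfbp3 alone is called between the iPSC groups.

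The course of each gene was also set beside the 6240 genes whose group means spanned at least 1, by Pearson's r over the 12 arrays. These values describe likeness across 5 groups, since arrays of a group share their cells, and carry no test. Closest to Igfbp2 were Map1a (r = 0.987), Asah1 (0.986), Stat2 (0.985), Bicc1 (0.984) and Oaz2 (0.982), each highest in astrocytes and lowest in day 6 cells. Map1a, a microtubule-associated protein of neurons, went from 9.49 in astrocytes to 6.22 in day 6 cells and 7.75 in astrocyte iPSCs. Among the other members, Igfbp5 was closest to Igfbp2 (0.838). Closest to Igfbp5 were Osbpl5, Adamtsl3 and Wnk1 (each 0.996), and closest to Igfbp3 were Ostm1 (0.978), Pfkm (0.975) and Slc25a4 (0.973). Rimklb (0.985), Gpr19 (0.983) and Laptm4b (0.977) were closest to Igfbp4. Aldh7a1 (0.976), Gask1b (0.974) and Pgap6 (0.974) were closest to Igfbp7, and Ano10 (0.995), Plekhm2 (0.991) and Ppp1r9b (0.990) to Igf1r. Igf1r had r of -0.031 with Igfbp4 and 0.009 with Igfbp7.

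The other ligand and receptor genes of the pathway were taken from a list of 5, of which Igf2, Ins2, Insr and Insrr had a probe set of their own. Igf2, the fetal ligand and an imprinted gene, was read at 6.83, 6.97 and 8.02 in astrocytes, 6.60, 6.98 and 6.88 in day 6 cells, 6.90 and 6.52 in neural stem cells, 8.07 and 9.27 in astrocyte iPSCs, and 8.81 and 8.43 in MEF iPSCs. All iPSC arrays were above all others. It rose by 1.85 ± 0.37 (SE) from day 6 cells to astrocyte iPSCs (limma adjusted p = 0.00261). Its rise of 1.40 ± 0.37 from astrocytes (adjusted p = 0.00731) came to 0.80 (adjusted p = 0.123) without astrocyte iPSC replicate 2, the array with more signal from feeder genes, whose part was not tested.

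Insr, the insulin receptor, averaged 9.36 ± 0.14 (SD, n = 3) in astrocytes, 8.65 ± 0.05 (n = 3) in day 6 cells, 10.10 ± 0.07 (n = 2) in neural stem cells, 7.78 ± 0.00 (n = 2) in astrocyte iPSCs and 8.08 ± 0.04 (n = 2) in MEF iPSCs. Neural stem cells were highest and iPSCs lowest, and a second probe set gave the same order of groups (8.53, 7.93, 9.12, 7.18 and 7.44). Insr was 1.45 ± 0.08 (SE) lower in day 6 cells than in neural stem cells (limma adjusted p = 1.3e-07) and fell by 1.58 ± 0.08 from astrocytes to astrocyte iPSCs (adjusted p = 2.1e-08). Neither Ins2 nor Insrr, which is an orphan relative of the insulin receptor, was called in any comparison, and their group means lay between 5.60 and 5.90.

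Of 3 other binding proteins and carriers, Igfbp1 and Igfals were called in no comparison. Igfbpl1, an IGFBP-like gene of neural progenitors, averaged 7.47 in astrocytes, 6.35 in day 6 cells and 8.02 in neural stem cells. It was 1.67 ± 0.21 (SE) lower in day 6 cells than in neural stem cells (limma adjusted p = 7.7e-05) and 1.12 ± 0.19 lower than in astrocytes (adjusted p = 0.000345). The latter came to -0.92 without astrocyte replicate 3, under the fold limit.

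**Figure D4:**
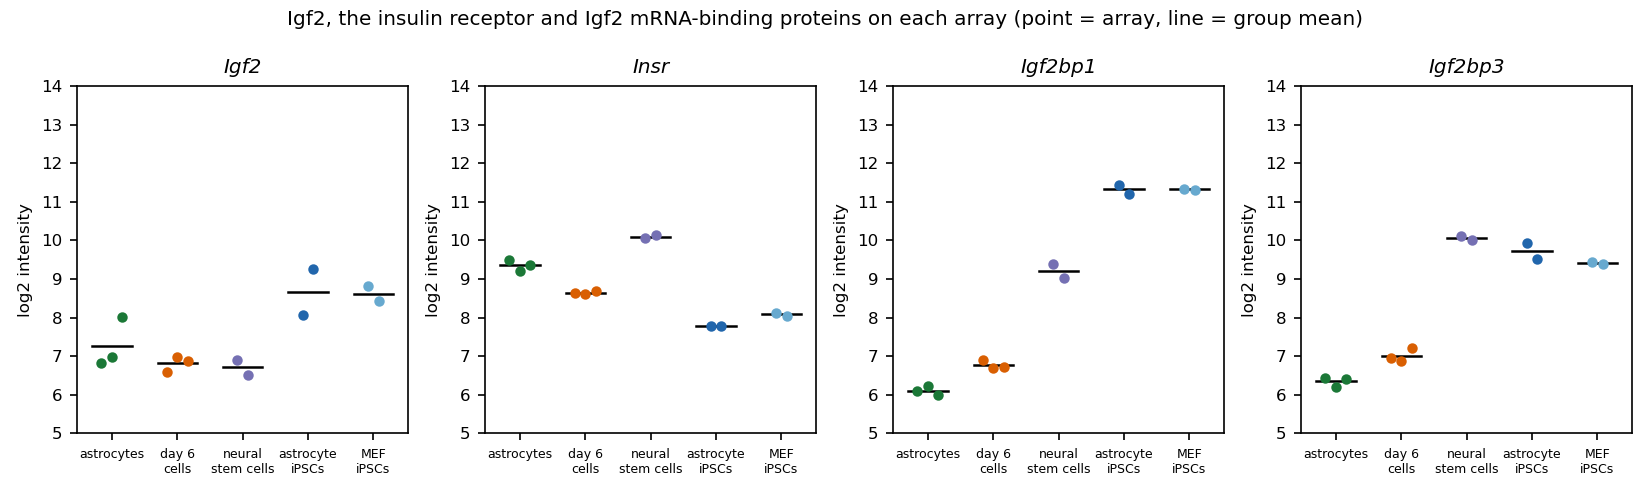
Log2 intensity (vertical axis) of Igf2, the insulin receptor gene Insr and the Igf2 mRNA-binding protein genes Igf2bp1 and Igf2bp3 in the 5 groups; each point is an array and each line a group mean. Igf2bp1 runs from 6.10 in astrocytes through 6.76 in day 6 cells and 9.21 in neural stem cells to 11.32 in both iPSC groups.

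Of 7 genes for proteases that cut IGFBPs or for inhibitors of these proteases, 4 were lower in day 6 cells than in astrocytes (10.1% of all genes) and 0 higher (6.75%). Their median log2 fold change was -1.97, against 0.04 for all genes. Htra1, a serine protease, fell by 3.15 ± 0.15 (SE, limma adjusted p = 8e-09), Adamts1 by 2.58 ± 0.20 (adjusted p = 4.5e-07), Adam12 fell by 2.12 ± 0.13 (adjusted p = 7.1e-08) and Pappa by 1.97 ± 0.16 (adjusted p = 6.3e-07). Neither Stc1 (-0.75 ± 0.13), Stc2 (1.00 ± 0.16) nor Pappa2 (-0.14 ± 0.09) was called. Stc2 was higher in day 6 cells (limma adjusted p = 0.000198) but lay just under the fold limit before rounding. The same 4 were called lower in astrocyte iPSCs than in astrocytes, where 11.4% of all genes were, although Pappa, at -1.23, came to -0.93 without astrocyte iPSC replicate 1. In neural stem cells against astrocytes, 3 were lower (8.1% of all genes), among them Htra1 at -4.18 ± 0.16, and Stc2, which inhibits Pappa, was 1.13 ± 0.18 higher (0.95 without astrocyte replicate 1). In day 6 cells against neural stem cells Adam12 was 2.73 ± 0.14 lower (adjusted p = 7e-08) and Htra1 1.03 ± 0.16 higher. The latter was under the fold limit, at 0.72 to 0.99, without day 6 replicate 1 or 3 or neural stem cell replicate 1.

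Of 14 measured receptor adaptors, which link the kinase to the cell's interior, 3 were lower (10.1% of all genes) and 1 higher (6.75%) in day 6 cells than in astrocytes, the latter a share near that of all genes. Irs2 fell by 1.72 ± 0.11 (SE, limma adjusted p = 1.1e-07), the docking protein gene Gab1 by 1.79 ± 0.10 (adjusted p = 3.2e-08) and Irs1 by 1.37 ± 0.14 (adjusted p = 7e-06). Over the mean of its probe sets Irs1 came to -0.95, under the fold limit. Grb10, an imprinted gene whose product inhibits the IGF1 and insulin receptors, rose by 2.19 ± 0.12 (adjusted p = 2.6e-08). Its group means were 7.52 in astrocytes, 9.71 in day 6 cells, 11.08 in neural stem cells, 8.89 in astrocyte iPSCs and 10.79 in MEF iPSCs, so the iPSC groups differed by -1.90 ± 0.14 (adjusted p = 3.2e-05). From astrocytes to astrocyte iPSCs, Irs1 fell by 3.04 ± 0.16 (adjusted p = 2.2e-08), Irs2 fell by 1.96 ± 0.12 and Grb10 rose by 1.37 ± 0.13. Gab1 rose by 2.35 ± 0.11 from day 6 cells to astrocyte iPSCs (adjusted p = 5e-08), where Irs1 fell by 1.67 ± 0.16. Grb14, a relative of Grb10, was 1.55 ± 0.27 higher in astrocyte iPSCs than in MEF iPSCs (adjusted p = 0.00608, and 0.0694 without MEF iPSC replicate 2).

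Inside the cell, 24 of 27 listed genes of the PI3K, AKT and mTOR route were measured, and 6 were lower (10.1% of all genes) and 2 higher (6.75%) in day 6 cells than in astrocytes. Pik3r3, a regulatory subunit of PI3K, fell by 2.26 ± 0.15 (SE, limma adjusted p = 1.3e-07), the AKT phosphatase gene Phlpp1 by 1.58 ± 0.09 and the catalytic subunit gene Pik3cb by 1.45 ± 0.10. Deptor, an inhibitor of mTOR, rose by 1.39 ± 0.17 (adjusted p = 2.9e-05). Against neural stem cells, Pik3r3 differed by -2.34 ± 0.17, Pik3r1 by -1.99 ± 0.12 and Deptor by 1.42 ± 0.19 in day 6 cells. In astrocyte iPSCs against astrocytes, 8 fell (11.4% of all genes) and 4 rose (9.44%), led by Inpp5d, a lipid phosphatase, which rose by 2.98 ± 0.11 (adjusted p = 1e-09), and Phlpp1, which fell by 2.94 ± 0.10 (adjusted p = 7.3e-10). Inpp5d was also 1.30 ± 0.12 higher in astrocyte iPSCs than in MEF iPSCs.

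The Igf2 mRNA-binding proteins, which bind the Igf2 transcript and are made mainly in embryos and tumours, had 2 of 3 members measured. Igf2bp1 averaged 6.10 in astrocytes, 6.76 in day 6 cells, 9.21 in neural stem cells and 11.32 in both iPSC groups, and Igf2bp3 averaged 6.35, 7.01, 10.06, 9.72 and 9.41 in the same groups. At these probe sets both were high in neural stem cells and iPSCs and low in astrocytes and day 6 cells. A second, dimmer Igf2bp1 probe set averaged 5.07, 5.14, 6.39, 8.66 and 8.15 in the same groups. There neural stem cells, too, lay below the array medians of 6.61 to 6.71, and the iPSCs stood out. Day 6 cells differed from neural stem cells by -2.44 ± 0.12 (SE) for Igf2bp1 (limma adjusted p = 3.4e-08) and by -3.05 ± 0.13 for Igf2bp3 (adjusted p = 1.5e-08). From day 6 cells to astrocyte iPSCs, Igf2bp1 rose by 4.55 ± 0.12 (adjusted p = 5.9e-10) and Igf2bp3 by 2.71 ± 0.13 (adjusted p = 6.1e-08). Neither was called between day 6 cells and astrocytes.

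Over the 75 measured genes of 8 lists, IGFBP-domain relatives and FoxO genes included, 25 were lower and 4 higher in day 6 cells than in astrocytes, where 10.1% and 6.75% of all genes were. In astrocyte iPSCs against astrocytes, 23 were lower and 8 higher (11.4% and 9.44% of all genes). In neural stem cells against astrocytes, 20 were lower and 5 higher (8.1% and 6.49%), and in day 6 cells against neural stem cells 10 were lower and 8 higher (5.94% and 2.94%).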

How the data were processed

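The deposited values are linear probe set intensities from RMA (robust multi-array averaging: background correction and normalization between arrays), per the submitters' processing notes. The sources used here do not give its version. The deposited intensities ran from 20.2 to 15436, and log2 was taken before every step, so a constant added before deposit would shrink differences of dim genes. Of 28853 probe sets, 21789 carried 1 gene symbol in the platform annotation, 1621 several and 5443 none. For each of 19938 genes the brightest single-gene probe set was kept, with no filter on dim genes.

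Groups were compared with limma 3.58.1 (R 4.3.3), fitting the 5 group means to all 12 arrays together (residual degrees of freedom 7, prior 3.9), with Benjamini-Hochberg adjustment over all genes. A call needed an adjusted p under 0.05 and an absolute log2 change of at least 1, and "rose" and "fell" are used of calls only. SE is limma's, SD is over arrays, and the small number of arrays limits the precision. The fit was tested on simulated data. Members and lists were chosen with earlier results of these data known. All members are named; of each list, at most the 4 called genes with the largest change per comparison, and every measured gene of lists of 5 or fewer. No gene list was tested as a set. Promoters came from RefSeq (GRCm38.p6), as did gene neighbours; all 9 members matched by symbol. The files give no genome build, and no gene positions from RefSeq's gene table are printed. Arrays were not paired by replicate number, since the labels do not say what the numbers share. As alternatives, a gene's probe sets were averaged, every probe set was tested, and the others were a filter on dim genes, cyclic loess, median centring, subtracting 16 before log2, only the groups compared, trend and robust settings, other thresholds, a replicate block and the removal of each array in turn. Tables and figures used matplotlib 3.10.9, numpy 2.4.6, pandas 2.3.3 and Python 3.11.15.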

Additional observations from a re-analysis of the deposited data

How the results depend on the processing

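Under 23 alternatives, 12 of which left out 1 array each, no called fold change of a member or list gene reversed. Member differences near 0 that were not called could change sign, for example Igfbp6 between day 6 cells and astrocytes (-0.04 to 0.20) and Igf1 between astrocyte iPSCs and day 6 cells (-0.13 to 0.46). Leaving out 1 array at a time gave 4 to 5 members called for astrocyte iPSCs against astrocytes, and the same counts as with all arrays in the other 5 comparisons. Without the fold limit, 4 members were called between day 6 cells and neural stem cells and 8 between neural stem cells and astrocytes. Igf1 and Igf1r were then also called lower in day 6 cells than in astrocytes, so that contrast between binding proteins and receptor rests on the fold limit. Igfbp3 was then called higher in astrocyte iPSCs than in day 6 cells, and Igf1 lower in astrocyte iPSCs than in astrocytes. The counts over all genes then became 9755 (day 6 cells against astrocytes), 7655 (day 6 cells against neural stem cells), 9144 (neural stem cells against astrocytes), 5896 (astrocyte iPSCs against day 6 cells), 10173 (astrocyte iPSCs against astrocytes) and 1150 (between the iPSC groups). The difference of Igfbp2 between day 6 cells and astrocytes was -5.39 with cyclic loess. Same-numbered arrays of astrocytes and day 6 cells had residual correlations of 0.357, -0.019 and 0.189, and differently numbered ones -0.304 to 0.117. Residuals within a group cancel out, so these values cannot decide whether the arrays were paired. The numbers were not taken as pairs because nothing in the labels says that they mark a shared litter, batch or day. With the replicate block the members called were 4, 2, 4, 3, 5 and 1 in the 6 comparisons, as without it, and 3364 genes were called between day 6 cells and astrocytes, against 1346 higher and 2014 lower without it. Of 116 calls in the gene lists, 18 were lost under at least 1 alternative. The filter on dim genes left Igfbp6 untested. Signal over background limits Igfbp6 and Igf1, and Igfbp4 and Igfbp7 where they are low. It also limits list genes in groups where no array put them above its median. Examples are Pappa, Adam12, Ccn3 and Igfbpl1 in day 6 cells, Igf2bp1, Igf2bp3 and Inpp5d in astrocytes, and Htra1 in neural stem cells.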

Other observations

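Of 11 measured genes whose products carry an IGFBP-type domain but are not IGF carriers, 5 were lower (10.1% of all genes) and 0 higher (6.75%) in day 6 cells than in astrocytes. Crim1, a transmembrane protein that binds BMPs, fell by 3.19 ± 0.08 (SE, limma adjusted p = 7.1e-11), and the secreted matricellular genes Ccn3, Ccn1 and Ccn2 differed by -2.85 ± 0.24, -2.36 ± 0.37 and -2.06 ± 0.22. Between day 6 cells and neural stem cells 2 of the 11 were called, both higher in day 6 cells (2.94% of all genes). Ccn2 was 2.68 ± 0.24 higher (limma adjusted p = 4.9e-06) and Ccn1 2.63 ± 0.42 higher (adjusted p = 0.000383), while Ccn3 (-0.24 ± 0.27) and Crim1 (-0.07 ± 0.09) were not called. Ccn1 averaged 13.32 in astrocytes, 10.95 in day 6 cells, 8.32 in neural stem cells and 11.15 in astrocyte iPSCs. In neural stem cells, which grew with no serum named in their medium, Ccn2 differed from astrocytes by -4.74 ± 0.24, and the part of serum was not tested.

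FoxO factors, which AKT keeps out of the nucleus, and genes listed as their targets numbered 10, of which 6 were lower and 1 higher in day 6 cells than in astrocytes, where 10.1% and 6.75% of all genes were. Their median log2 fold change was -1.23, against 0.04 for all genes. Txnip, which binds thioredoxin, fell by 2.10 ± 0.21 (SE, limma adjusted p = 4.1e-06), and the stress response genes Sesn3 and Sesn1 fell by 1.76 ± 0.11 and 1.73 ± 0.11. Foxo4 itself rose by 1.71 ± 0.07 (adjusted p = 3.1e-09). It averaged 9.12 in day 6 cells, against 7.41 in astrocytes, 7.20 in neural stem cells, 7.67 in astrocyte iPSCs and 7.85 in MEF iPSCs, and fell by 1.44 ± 0.08 from day 6 cells to astrocyte iPSCs (adjusted p = 1.3e-07). In neural stem cells against astrocytes, 6 of the 10 were lower (8.1% of all genes), led by Txnip at -3.33 ± 0.23 and Foxo1 at -1.66 ± 0.11.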
